A study of Mus musculus with 32 samples.

Results

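Homeostatic microglia genes were followed in mouse brain 1 day after an ischemic stroke. The 10 genes were P2ry12, P2ry13, Tmem119, Sall1, Cx3cr1, Gpr34, Siglech, Olfml3, Sparc and Slc2a5. They were taken by name from 33280 rows in each of 2 count tables, and all 10 passed the filter on low counts. Wild-type mice received either vehicle (CTL, 20% hydroxypropyl-β-cyclodextrin) or the CSF1R inhibitor BLZ945 at 200 mg/kg by gavage for 7 days, a treatment that depletes brain macrophages. At 8 weeks after treatment, when the niche had been repopulated, a thrombin clot was set in the middle cerebral artery of every mouse, so both groups carried a stroke and no mouse without stroke was analysed here. From 4 CTL mice (A2, A3, A4 and B1) and 4 BLZ945 mice (C2, C3, C4 and D1), the stroked (ipsilateral) and the opposite (contralateral) hemisphere each gave a library from a whole-tissue slice and a library from sorted subdural CNS-associated macrophages (sdCAMs). The sdCAMs were gated as CD206+ CD45+ CD11b+ Ly6C- Ly6G- CD11c- cells after removal of the choroid plexus, and the gate did not separate cells by origin. Treatment began in young adult mice of both sexes, and the contralateral hemisphere of the same stroked brain served as the reference.

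Microglia are the macrophages of the brain parenchyma and depend on CSF1R signaling. In the resting state they carry a set of surface receptors and transcription factors that other macrophages hold at lower levels or lack. P2ry12 and P2ry13 encode receptors for extracellular nucleotides such as ADP, P2ry12 steers microglial processes to sites of injury, and a loss of these transcripts is a familiar sign that microglia have left the resting state. CAMs line the leptomeninges and the perivascular space and are recognized by Mrc1 (CD206), Lyve1, Cd163 and Pf4.

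Libraries held between 9288717 and 12781505 counts in tissue and between 7397393 and 11081409 counts in sdCAMs. Levels are given in CPM (counts relative to the TMM-normalized library total), and 3 counts, the floor used here, corresponded to 0.234 to 0.321 CPM in tissue and 0.253 to 0.389 CPM in sdCAMs, which covers counting error only. The ipsilateral sdCAM libraries of A3 and C2 came from degraded RNA and were left out, which leaves 3 ipsilateral against 4 contralateral sdCAM libraries per treatment. For the tissue of A3, count table and sample titles disagree on which of both libraries is ipsilateral. Library 19 was taken as ipsilateral. The tissue calls of the homeostatic genes are repeated after exchanging both A3 libraries and after leaving A3 out. Counts of mice by direction, overlaps of the hemispheres and ratios within a library are given for this assignment alone and would change under the exchange. Differences are log2 fold changes from edgeR's quasi-likelihood test with their standard error (SE), and calls needed an adjusted p (Benjamini-Hochberg, over all genes tested) under 0.05 as well as a log2 fold change beyond 0.59.

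Promoter sequence upstream of the start site is shown for 3 genes on which the results turn, P2ry12 and Siglech, which were called lower in the stroked tissue, and Cx3cr1, which was not. The sequences are RefSeq entries on GRCm38.p6, 250 bases up to the start site, written in the direction of the gene. P2ry12 lies at chr3:59262986-59263235 on the minus strand, Siglech at chr7:55767934-55768183 on the plus strand and Cx3cr1 at chr9:120068297-120068546 on the minus strand. Capitals mark GGAAGT or GAGGAA on either strand, the overlapping ends of the PU.1-type element of macrophage genes.
P2ry12: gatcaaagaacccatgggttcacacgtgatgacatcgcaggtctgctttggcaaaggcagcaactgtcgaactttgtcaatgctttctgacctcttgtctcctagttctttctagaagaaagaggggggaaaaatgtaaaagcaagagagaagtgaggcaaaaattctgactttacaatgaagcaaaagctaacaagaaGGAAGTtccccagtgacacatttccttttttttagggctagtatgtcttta
Siglech: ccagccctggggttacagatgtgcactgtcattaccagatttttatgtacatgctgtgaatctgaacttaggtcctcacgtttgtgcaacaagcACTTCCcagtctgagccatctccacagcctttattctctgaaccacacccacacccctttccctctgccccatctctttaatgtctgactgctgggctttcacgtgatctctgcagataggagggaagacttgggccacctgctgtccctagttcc
Cx3cr1: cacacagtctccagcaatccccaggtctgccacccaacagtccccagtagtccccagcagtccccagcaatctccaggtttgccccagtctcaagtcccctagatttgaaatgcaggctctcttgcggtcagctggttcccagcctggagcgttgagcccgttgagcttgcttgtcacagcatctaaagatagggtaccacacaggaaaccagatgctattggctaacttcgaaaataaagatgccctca
P2ry12 held GGAAGT on its own strand, Siglech held it on the opposite strand, and neither motif was found in this window of Cx3cr1. Of 8 genes with an entry, 4 held a match in any entry, P2ry12, P2ry13, Siglech and Sall1. Among all 32851 promoters of this length, 23.3% held GAGGAA, 19.7% GGAAGT and 36.7% either motif, so a match is frequent and describes letters only.

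Before asking for changes, the levels of the genes were ordered per kilobase of exon, which allows genes to be compared. In contralateral tissue, Sparc, a secreted matrix-binding glycoprotein that astrocytes and endothelial cells also make, had the highest level with 142 ± 59.9 CPM per kb (SD, n = 8). The fractalkine receptor gene Cx3cr1 followed with 13.3 ± 0.932 CPM per kb and the surface protein gene Tmem119 with 12.6 ± 1.56 CPM per kb. From lowest to highest library, the ranges of neighbors in this order overlapped from Cx3cr1 to P2ry12 (9.91 ± 1.02 CPM per kb). They also overlapped from Sall1 (4.78 ± 0.667 CPM per kb) to Gpr34 (3.48 ± 0.485 CPM per kb). The fructose transporter gene Slc2a5 stood below all of them with 1.50 ± 0.233 CPM per kb. Exons of P2ry12 overlap those of Med12l by 9 bases and exons of Cx3cr1 overlap those of Gm33858 by 78 bases, each on the opposite strand. Since the strand setting of the counting is not given in the sources used here, reads in these bases cannot be told apart.

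The first question was how homeostatic genes stood in stroked against contralateral tissue. P2ry12 and Siglech were lower in the ipsilateral tissue of all 8 mice and passed the test in the average of both treatments, and none of the other 8 genes was called. In CTL mice A2, A3, A4 and B1, contralateral P2ry12 was 25.8, 26.9, 28.99 and 25.2 CPM and ipsilateral P2ry12 14.1, 16.5, 22.99 and 12.7 CPM. BLZ945 mice C2, C3, C4 and D1 had contralateral P2ry12 of 21.96, 27.6, 23.4 and 22.003 CPM and ipsilateral P2ry12 of 14.9, 16.9, 12.4 and 14.1 CPM. The hemispheres did not overlap in either treatment, and A4 had the smallest distance between its hemispheres. P2ry12 was 0.69 lower on the log2 scale in CTL mice (log2 fold change -0.69, SE 0.15, edgeR adjusted p = 0.0591) and missed the threshold there. With the mouse as a block it passed in CTL mice (log2 fold change -0.72, edgeR adjusted p = 0.00134). Of the fits that left out a single mouse, only that without A4 gave a call (log2 fold change -0.83, edgeR adjusted p = 0.0124). Since A4 had the smallest decrease, leaving it out enlarges the fold change in CTL mice by construction. A decrease was called in BLZ945 mice (log2 fold change -0.70, SE 0.16, edgeR adjusted p = 0.0287). Averaged over both treatments, the level fell to 0.618 of the contralateral one (log2 fold change -0.70, SE 0.11, edgeR adjusted p = 0.00103).

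Siglech, which encodes a sialic acid-binding lectin of mouse microglia, stood at 15.1, 15.4, 14.03 and 10.6 CPM contralaterally and at 9.76, 11.9, 11.3 and 7.66 CPM ipsilaterally in CTL mice A2, A3, A4 and B1. In BLZ945 mice C2, C3, C4 and D1, it stood at 13.8, 15.7, 12.7 and 12.1 CPM contralaterally and at 9.07, 6.32, 6.52 and 7.69 CPM ipsilaterally. The hemispheres overlapped in CTL mice through B1, which was low on both sides, and did not overlap in BLZ945 mice. Siglech fell in BLZ945 mice by 0.87 on the log2 scale (SE 0.17, edgeR adjusted p = 0.0124) and in the average of both treatments by 0.66 (SE 0.12, edgeR adjusted p = 0.00356). In CTL mice its log2 fold change was -0.44 (SE 0.17, edgeR adjusted p = 0.602). The same direction was seen for Slc2a5, with 4.28, 4.84, 6.40 and 5.09 CPM contralaterally and 3.67, 2.92, 4.42 and 3.30 CPM ipsilaterally in CTL mice, and 5.89, 4.91, 5.49 and 4.03 CPM against 3.68, 2.61, 3.47 and 3.20 CPM in BLZ945 mice. Slc2a5 was lower ipsilaterally in 8 of 8 mice, and its hemispheres overlapped in CTL but not in BLZ945 mice. Its average log2 fold change of -0.58 (SE 0.14, edgeR adjusted p = 0.0283) lay inside the fold change limit of 0.59, so it was not called.

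**Figure D1:**
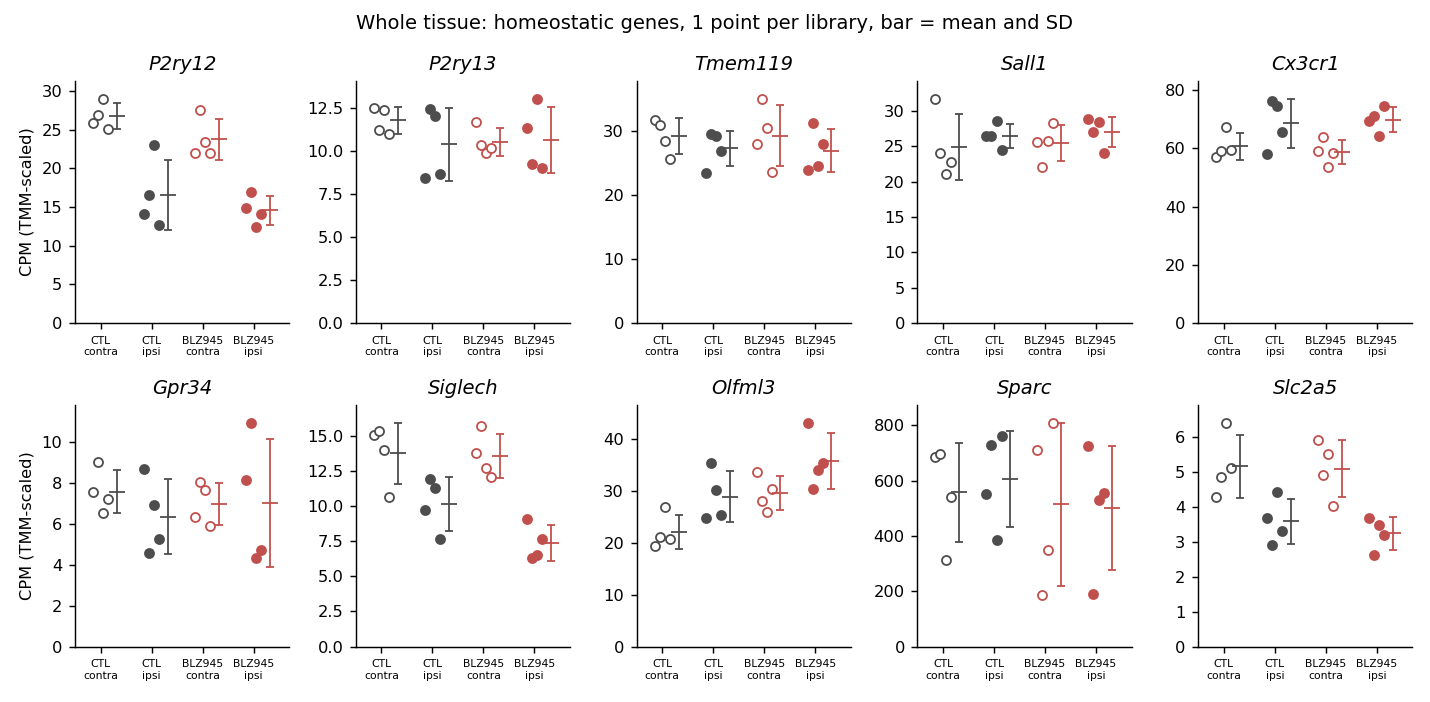
Whole-tissue level of each gene in CPM (vertical axes, starting at 0) by treatment and hemisphere, with 1 point per library and a bar for the mean and SD of 4 libraries. P2ry12 lies between 21.96 and 28.99 CPM in all contralateral libraries and between 12.4 and 22.99 CPM in all ipsilateral ones, while Sparc spreads from 188 to 810 CPM without a split by hemisphere.

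Cx3cr1 and Olfml3 pointed in the opposite direction. Cx3cr1 measured 56.9, 59.1, 67.5 and 59.6 CPM contralaterally and 58.2, 76.2, 74.5 and 65.7 CPM ipsilaterally in CTL mice. In BLZ945 mice it measured 59.0, 63.8, 53.7 and 58.3 CPM contralaterally and 69.3, 71.0, 64.3 and 74.7 CPM ipsilaterally. It was higher ipsilaterally in 8 of 8 mice, without overlap of the hemispheres in BLZ945 mice and with overlap in CTL mice. The average log2 fold change of Cx3cr1 was 0.21 (SE 0.06, edgeR adjusted p = 0.0860), which missed the threshold. Olfml3, which encodes a secreted olfactomedin-like protein, measured 19.4, 21.1, 26.8 and 20.7 CPM against 24.8, 35.2, 30.2 and 25.3 CPM in CTL mice, and 33.6, 28.01, 25.96 and 30.2 CPM against 43.1, 30.4, 34.0 and 35.4 CPM in BLZ945 mice, contralateral first. Its hemispheres overlapped in both treatments although it was higher ipsilaterally in 8 of 8 mice, and its average log2 fold change of 0.34 (SE 0.10, edgeR adjusted p = 0.0794) also missed the threshold.

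The remaining 5 genes had average log2 fold changes from -0.12 to 0.09 in tissue and none passed the test. These were the second ADP receptor gene P2ry13 (-0.08, 95% interval -0.32 to 0.15), Tmem119 (-0.11, -0.30 to 0.07), the transcription factor gene Sall1 (0.09, -0.09 to 0.26), the lysophosphatidylserine receptor gene Gpr34 (-0.12, -0.52 to 0.28) and Sparc (0.04, -0.58 to 0.66). Sparc varied more between mice than between hemispheres, from 188 CPM in the contralateral library of C3 to 810 CPM in that of D1. Across the 16 tissue libraries the summed choroid plexus markers (6 of 6 measured, none at 0 throughout) ranged from 4.08 to 4259 CPM, with 4.08 CPM in that library of C3 and 2856 CPM in that of D1, and their part in the Sparc values was not tested.

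In terms of called genes, 2 of 10 homeostatic genes were called lower in the average of both treatments, where 0.0738% of 18968 genes were called lower and 1.93% higher. In BLZ945 mice the same 2 of 10 were called lower, against a background of 0.0369% lower and 1.12% higher. In CTL mice 0 of 10 were called and 4 had an unadjusted p under 0.05, against a background of 0% lower and 0.443% higher, and DESeq2 called 1, P2ry12, lower (adjusted p = 0.00398). The hemispheres did not overlap downward for 1 gene in CTL mice (background 1.48%) and for 3 genes in BLZ945 mice (background 2.31%), and upward for 1 gene, Cx3cr1, in BLZ945 mice (background 4.2%). The median log2 fold change of the 10 genes was -0.10 in the average, beside -0.01 for all genes tested.

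The tissue calls depended on the assignment of A3. With its hemispheres exchanged, 0 of 10 genes were called, and the average log2 fold changes were -0.52 for P2ry12 (edgeR adjusted p = 0.177) and -0.55 for Siglech (edgeR adjusted p = 0.111). Without A3 both stayed past the threshold in the average, at -0.69 for P2ry12 (edgeR adjusted p = 0.00727) and -0.67 for Siglech (edgeR adjusted p = 0.0108). In BLZ945 mice, whose libraries do not include A3, the fold changes were the same under the exchange and only the adjusted p moved, to 0.207 for P2ry12 and 0.0879 for Siglech by edgeR, because all groups share 1 estimate of the spread. Leaving out a single BLZ945 mouse also ended calls there, both of them without C3, C4 or D1 and that of P2ry12 without C2, and without A3 P2ry12 had an adjusted p of 0.0596 by edgeR. In the average, Siglech moved inside the fold change limit without C3 (log2 fold change -0.58, edgeR adjusted p = 0.0186).

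Each library was also read against itself, since the ratio of a pair of genes within a library does not depend on scaling. This ratio was chosen after its values were seen and is given as a description. For each Cx3cr1 count, contralateral tissue held 0.372 to 0.455 P2ry12 counts and ipsilateral tissue 0.189 to 0.309, lower in 8 of 8 mice. Library 19 of A3 held 0.217 P2ry12 counts per Cx3cr1 count and the other library of A3 held 0.455. The pair was chosen with library 19 already taken as ipsilateral, so these values cannot decide the assignment of A3. Siglech counts per Cx3cr1 count showed the same order, 0.179 to 0.265 contralaterally and 0.0890 to 0.168 ipsilaterally, again lower in 8 of 8 mice. P2ry12 and Siglech were each lower and Cx3cr1 higher ipsilaterally in 8 of 8 mice, so both ratios had to be lower there.

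**Figure D2:**
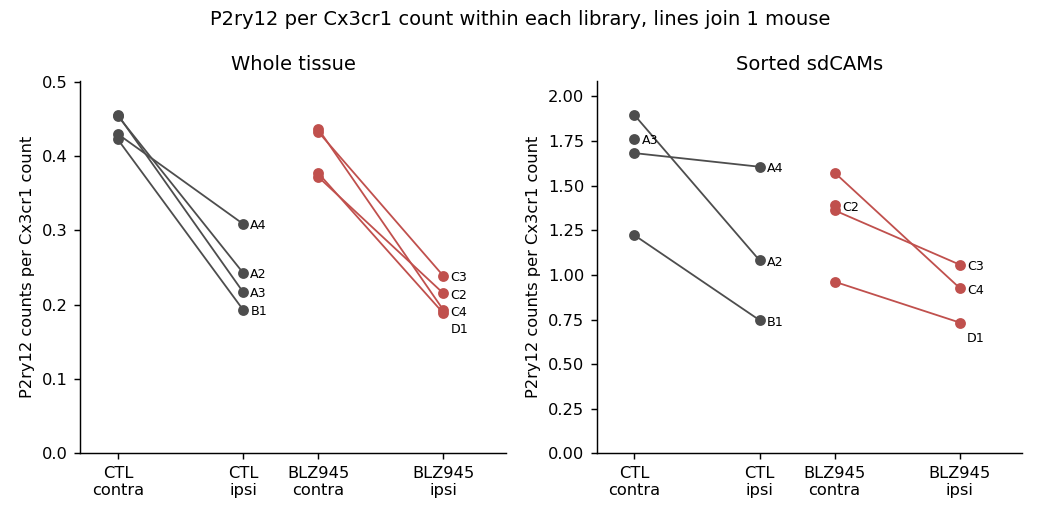
P2ry12 counts per Cx3cr1 count within each library (vertical axes, starting at 0, with a different scale in each panel) by treatment and hemisphere, with lines joining both hemispheres of 1 mouse. All 8 lines of tissue and all 6 lines of sdCAMs run downward from the contralateral to the ipsilateral side, and A3 and C2 have no line in sdCAMs because their ipsilateral libraries were left out.

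Genes that all macrophages share were set beside these values. The 15 pan-macrophage genes (15 of 15 measured, none at 0 throughout) summed to 438 to 481 CPM contralaterally and 517 to 625 CPM ipsilaterally in CTL tissue, and to 485 to 547 CPM and 558 to 689 CPM in BLZ945 tissue. Of them, 4 were called higher in the average of both treatments and none lower, with a median log2 fold change of 0.47. When libraries were scaled to these genes, P2ry12, Siglech and Slc2a5 were called lower in CTL mice, in BLZ945 mice and in the average. Their average log2 fold changes were then -0.99, -0.95 and -0.87 (edgeR adjusted p = 2.7e-05, 3.74e-05 and 0.000656), relative to a median of -0.29 over all genes. The share of all genes called under this scaling is not given here. Cx3cr1 lost its direction under this scaling (-0.08). In bulk tissue, fewer cells of a type and less RNA per cell cannot be told apart. Markers of sdCAMs (10 of 10 measured, none at 0 throughout) summed to 23.6 to 31.7 CPM contralaterally and 31.5 to 37.6 CPM ipsilaterally in CTL tissue, and to 21.4 to 28.4 CPM and 34.3 to 44.1 CPM in BLZ945 tissue. Their part in the homeostatic genes was not tested.

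Of 18 other microglia-enriched genes measured, out of 19 listed, none was called lower in the tissue average, and Pros1, a ligand of TAM receptors, was called higher (log2 fold change 0.69, SE 0.10, edgeR adjusted p = 0.000695). In BLZ945 mice Pros1 was called higher (0.80, SE 0.15, edgeR adjusted p = 0.00777) and Selplg, the P-selectin ligand gene, was called lower (-0.65, SE 0.15, edgeR adjusted p = 0.0328), while none was called in CTL mice, where 4 had an unadjusted p under 0.05. Their median log2 fold change was -0.12 in the average.

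Repopulated and CTL tissue were then compared directly. The stroke response of the 10 genes was not shown to differ between treatments, with 0 of 10 called and none at an unadjusted p under 0.05 by edgeR or by DESeq2 (background 0% by edgeR, where 386 genes had an unadjusted p under 0.05). The largest difference was that of Siglech, whose response was lower in BLZ945 mice by 0.43 on the log2 scale (log2 difference -0.43, 95% interval -0.93 to 0.07, edgeR adjusted p = 1.00). For P2ry12 the interval of the difference was -0.47 to 0.44. Between treatments within a hemisphere, 0 of 10 genes were called ipsilaterally (background 0%, with 858 genes at an unadjusted p under 0.05) and 0 of 10 contralaterally (background 0%, with 616 genes). DESeq2 called none of the 10 in either hemisphere. Olfml3 had the lowest unadjusted p among the 10 genes in the contralateral comparison (0.00744 by edgeR) with 22.01 ± 3.29 CPM in CTL and 29.5 ± 3.29 CPM in BLZ945 mice (SD, n = 4 each), a log2 fold change of 0.42 (SE 0.14, edgeR adjusted p = 1). Ipsilaterally Siglech (log2 fold change -0.46) and Olfml3 (0.31) had an unadjusted p under 0.05 (edgeR adjusted p = 0.958 for both).

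The sorted sdCAMs were examined next, beginning with what the sort held. All 10 homeostatic genes were higher in contralateral sdCAMs than in contralateral tissue, against 30.3% of 19389 genes called higher. Gpr34 had the largest difference with a log2 fold change of 7.17 (SE 0.26), followed by P2ry12 with 6.50 (SE 0.23) and P2ry13 with 6.14 (SE 0.19). Tmem119 (5.81), Siglech (5.70), Slc2a5 (5.58), Olfml3 (5.16) and Cx3cr1 (4.73) came next, and Sparc (1.94, SE 0.28) and Sall1 (1.92, SE 0.18) had the smallest differences. The edgeR adjusted p lay between 6.27e-20 for Cx3cr1 and 9.31e-07 for Sparc. Over the same contrast the 15 pan-macrophage genes had a median log2 fold change of 6.15, all genes had one of -0.15, and the defining sdCAM marker Mrc1 had 7.86 (SE 0.36, edgeR adjusted p = 1.73e-16). Of the 18 other microglia-enriched genes, 16 were called higher and 1, Mef2c, lower (-0.71, SE 0.15, edgeR adjusted p = 0.000146). Sorting and RNA preparation differed together between the 2 kinds of library and cannot be told apart.

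**Figure D3:**
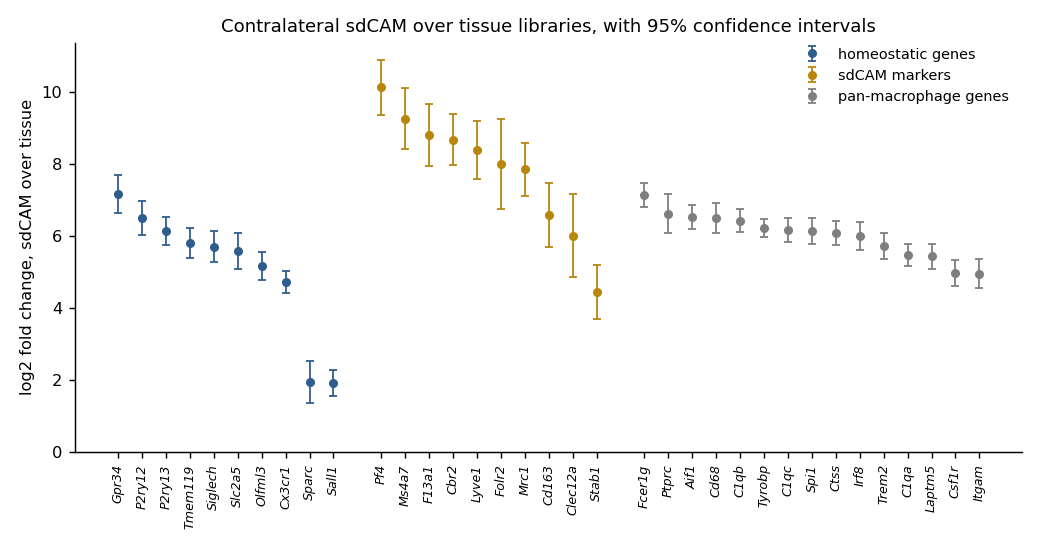
Log2 fold change of contralateral sdCAMs over contralateral tissue (vertical axis) for the 10 homeostatic genes, 10 sdCAM markers and 15 pan-macrophage genes, with points for the estimate and bars for the 95% confidence interval. The homeostatic genes lie between 1.92 for Sall1 and 7.17 for Gpr34, and the sdCAM markers between 4.44 for Stab1 and 10.14 for Pf4.

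Although cells were gated for CD206, its gene Mrc1 was not the more abundant one. In contralateral sdCAMs P2ry12 had 1052 ± 473 CPM per kb and Mrc1 126 ± 73.7 CPM per kb (SD, n = 8). Mrc1 was present in all 14 libraries, between 344 and 2819 CPM, and Pf4 between 160.0 and 958 CPM, so the markers of the label were found together with those of microglia. Mrc1 counts per P2ry12 count were below 1 in 13 of 14 libraries and higher ipsilaterally in 6 of 6 mice, at 0.121 to 0.870 contralaterally and 0.251 to 1.64 ipsilaterally. Per kilobase, P2ry12 led the order of the 10 genes in contralateral sdCAMs, followed by Tmem119 (794 ± 266 CPM per kb), Sparc (600 ± 162 CPM per kb) and Gpr34 (562 ± 168 CPM per kb). At the end stood Slc2a5 (82.5 ± 36.6 CPM per kb) and Sall1 (20.8 ± 7.81 CPM per kb), and these 2 were the only neighbors whose ranges did not overlap.

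In the stroke response of sdCAMs, Cx3cr1, P2ry13 and Olfml3 rose in the average of both treatments. Contralateral Cx3cr1 was 2424, 1945, 2220 and 2404 CPM in CTL mice A2, A3, A4 and B1, and ipsilateral Cx3cr1 3775, 4361 and 3378 CPM in A2, A4 and B1. In BLZ945 mice it was 1391, 1647, 711 and 1487 CPM contralaterally in C2, C3, C4 and D1, and 3149, 2554 and 2345 CPM ipsilaterally in C3, C4 and D1. The hemispheres did not overlap in either treatment, and the contralateral library of C4 was the lowest of all. Cx3cr1 rose in BLZ945 mice by a log2 fold change of 1.04 (SE 0.24, edgeR adjusted p = 0.0210) and in the average by 0.90 (SE 0.17, edgeR adjusted p = 0.00246), to 1.87 times the contralateral level. In CTL mice the log2 fold change of 0.77 (SE 0.24, edgeR adjusted p = 0.100) missed the threshold. It passed there with DESeq2 (0.70, DESeq2 adjusted p = 0.0285) and without the contralateral library of C4 (0.77, edgeR adjusted p = 0.0227). C4 is a BLZ945 mouse, so that omission left the CTL fold change at 0.77 and moved the adjusted p through the shared estimate of the spread. The omission was chosen after seeing the data.

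P2ry13 stood at 1333, 978, 1114 and 905 CPM contralaterally and 1613, 2220 and 1199 CPM ipsilaterally in CTL mice, in the order given for Cx3cr1. In BLZ945 mice it stood at 858, 777, 385 and 660.2 CPM contralaterally and 1643, 1223 and 942 CPM ipsilaterally. Its hemispheres overlapped in CTL mice and did not overlap in BLZ945 mice. In the average P2ry13 rose by a log2 fold change of 0.78 (SE 0.20, edgeR adjusted p = 0.0159). In BLZ945 mice alone it had 0.92 (SE 0.28, edgeR adjusted p = 0.0682), and with the mouse as a block it passed there (1.09, edgeR adjusted p = 0.0354). Olfml3 had 1377, 1087, 1059 and 967 CPM contralaterally and 1810, 1707 and 1175 CPM ipsilaterally in CTL mice, and 1056, 1145, 520.1 and 780 CPM against 1952, 1863 and 957 CPM in BLZ945 mice. Its hemispheres overlapped in both treatments, and it rose in the average by a log2 fold change of 0.67 (SE 0.20, edgeR adjusted p = 0.0358). Each of these 3 genes was higher ipsilaterally in 6 of 6 mice with both libraries. Single mice decided part of these calls. The average call of Olfml3 was lost without A2, A3, A4, B1, C3 or C4 (edgeR adjusted p between 0.0512 and 0.116) and with DESeq2 size factors in edgeR (0.59, adjusted p = 0.0575), and that of P2ry13 without A4 (0.66, edgeR adjusted p = 0.0715) or C3 (0.70, edgeR adjusted p = 0.0562). The call of Cx3cr1 in BLZ945 mice was lost without C3 (1.03, edgeR adjusted p = 0.0845) or C4 (0.87, edgeR adjusted p = 0.0581), while its average call held without any mouse (edgeR adjusted p at most 0.0154).

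**Figure D4:**
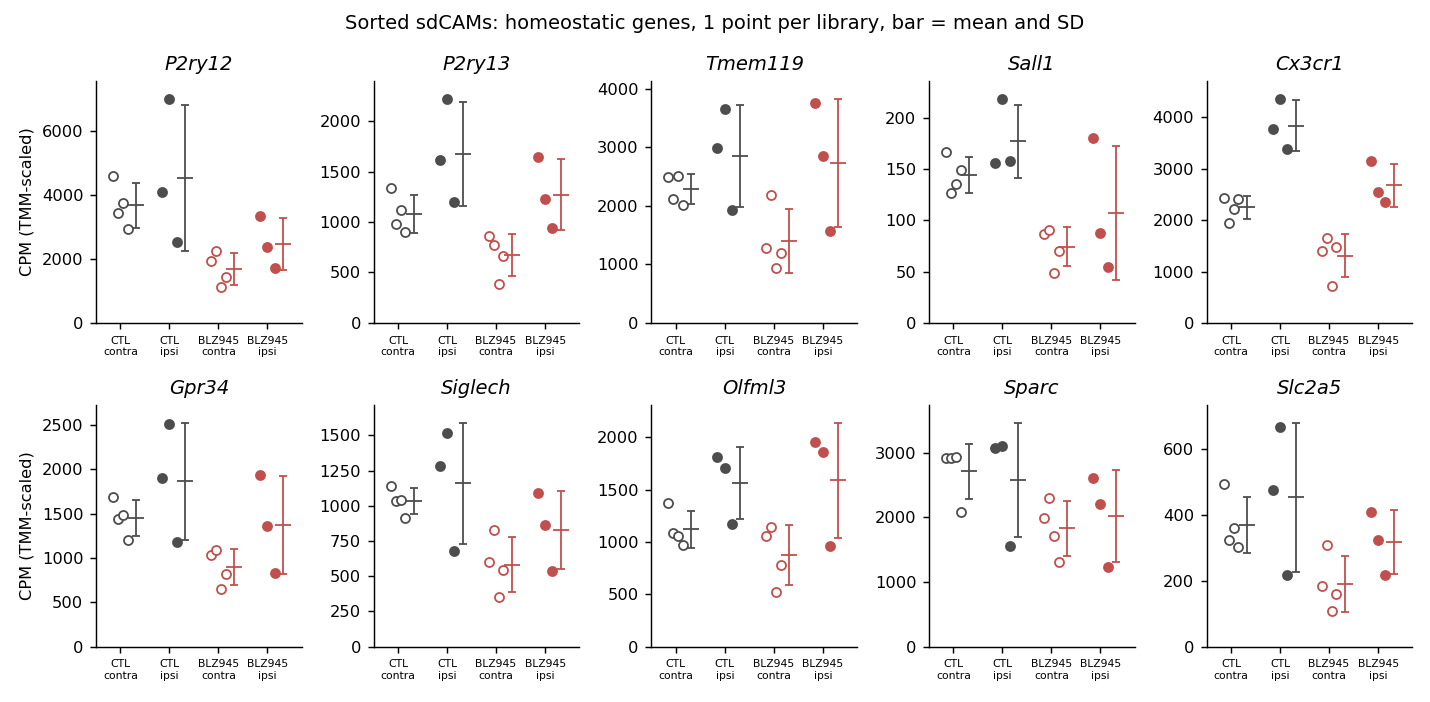
Level of each gene in sorted sdCAMs in CPM (vertical axes, starting at 0) by treatment and hemisphere, with 1 point per library and a bar for the mean and SD of 4 contralateral or 3 ipsilateral libraries. Cx3cr1 lies between 711 and 2424 CPM contralaterally and between 2345 and 4361 CPM ipsilaterally, while P2ry12 spreads from 2522 to 7003 CPM in the ipsilateral CTL libraries alone.

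P2ry12 did not pass the test in sdCAMs. Its levels were 4597, 3427, 3735 and 2940 CPM contralaterally in CTL mice A2, A3, A4 and B1, and 4083, 7003 and 2522 CPM ipsilaterally in A2, A4 and B1. In BLZ945 mice they were 1932, 2243, 1118 and 1430 CPM contralaterally in C2, C3, C4 and D1, and 3329, 2364 and 1719 CPM ipsilaterally in C3, C4 and D1. The hemispheres overlapped in both treatments. The average log2 fold change of P2ry12 was 0.43 with a 95% interval from -0.06 to 0.92 (edgeR adjusted p = 0.220), higher ipsilaterally in 4 of 6 mice. Siglech had 0.34 (-0.12 to 0.80) and Slc2a5 0.51 (-0.04 to 1.07), and neither passed the test. Tmem119 (0.65, edgeR adjusted p = 0.0585), Gpr34 (0.49, edgeR adjusted p = 0.117), Sall1 (0.41, edgeR adjusted p = 0.233) and Sparc (0.03, edgeR adjusted p = 0.980) did not pass either. Relative to Cx3cr1, P2ry12 counts still went from 0.962 to 1.90 contralaterally to 0.733 to 1.61 ipsilaterally, lower in 6 of 6 mice.

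**Figure D5:**
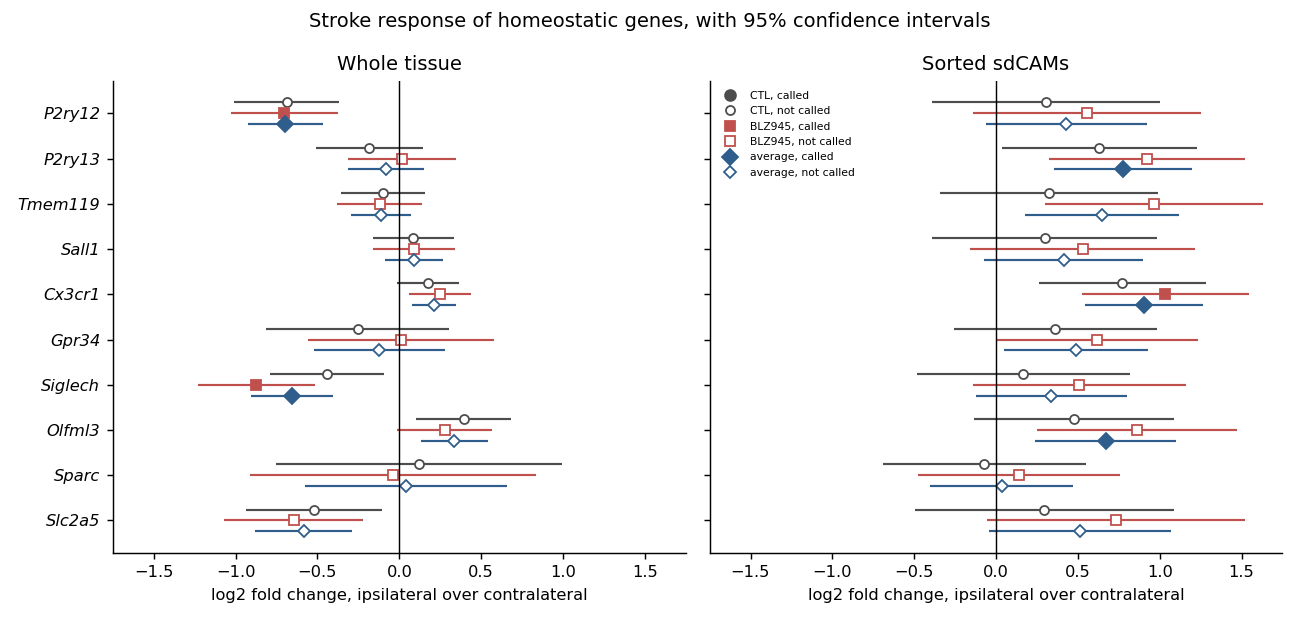
Stroke response of the 10 genes as log2 fold change, ipsilateral over contralateral (horizontal axes), in tissue and in sdCAMs, for CTL mice, BLZ945 mice and the average of both, with bars for the 95% confidence interval and filled markers for called genes. P2ry12 lies at -0.70 in the tissue average and at 0.43 in the sdCAM average, and Cx3cr1 has the largest sdCAM average with 0.90.

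By count, 3 of 10 genes were called higher and none lower in the sdCAM average, where 3.91% of 18297 genes were called higher and 11.1% lower. In BLZ945 mice 1 of 10 was called higher (background 1.2% higher and 4.41% lower), and DESeq2 called 3, Cx3cr1, P2ry13 and Tmem119. In simulated sdCAM data for this comparison, DESeq2 made 52 false calls and edgeR 3. The share of all genes that DESeq2 called is not given here. In CTL mice 0 of 10 were called and 2 had an unadjusted p under 0.05 (background 0.426% higher and 2.36% lower), and DESeq2 called 1, Cx3cr1. Without overlap, 1 gene was higher ipsilaterally in CTL mice (background 5.7%) and 2 in BLZ945 mice (background 7.44%). The median log2 fold change of the 10 genes was 0.50 in the average, beside -0.16 for all genes tested, 0.61 for the 18 other microglia-enriched genes and 0.66 for the 15 pan-macrophage genes. Of the other microglia-enriched genes, 8 were called higher and none lower, among them Pros1 (0.82, SE 0.16, edgeR adjusted p = 0.00266), Golm1 (0.75, SE 0.21, edgeR adjusted p = 0.0245), Tgfbr1 (0.73, SE 0.20, edgeR adjusted p = 0.0211) and Mef2c (0.68, SE 0.16, edgeR adjusted p = 0.00961).

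Markers of other cells moved together with the hemisphere in the sort. Endothelial markers (8 of 8 measured) summed to 956 to 2924 CPM contralaterally and 79.0 to 199 CPM ipsilaterally in CTL mice, and to 1549 to 2914 CPM and 57.6 to 95.2 CPM in BLZ945 mice. Oligodendrocyte markers (8 of 8 measured) summed to 2350 to 6833 CPM and 351 to 844 CPM in CTL mice, and to 995 to 3698 CPM and 231 to 323 CPM in BLZ945 mice. Neither list overlapped between hemispheres, none of their markers was at 0 throughout, and their part in the homeostatic genes was not tested. The pan-macrophage genes summed to 29337 to 43231 CPM contralaterally and 41418 to 52041 CPM ipsilaterally in CTL mice, and to 16878 to 31669 CPM and 43282 to 56060 CPM in BLZ945 mice. Scaled to them, 0 of 10 homeostatic genes were called higher in the average, with Cx3cr1 at 0.23 (edgeR adjusted p = 0.162), P2ry13 at 0.08 and Olfml3 at -0.03. Sparc was then called lower (-0.73, edgeR adjusted p = 0.0181), although the median over all genes was lower still at -0.88. With the degraded libraries of A3 and C2 added, 0 of 10 genes were called.

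Last, sdCAMs of repopulated mice were compared with those of CTL mice. All 10 genes had lower mean levels in BLZ945 than in CTL sdCAMs contralaterally, but none passed correction. The fold changes ranged from -0.36 for Olfml3 to -1.13 for P2ry12 (SE 0.31, 95% interval -1.79 to -0.47), whose mean was 1681 ± 503 CPM against 3675 ± 697 CPM in CTL mice (SD, n = 4 each). For P2ry12 the unadjusted p was 0.00227 and the adjusted p 0.759 by edgeR. Of the 10 genes, 0 were called and 8 had an unadjusted p under 0.05, among 1133 of all genes (background of calls 0%), and DESeq2 also called 0 of them with a lowest adjusted p of 0.0810 for P2ry12 and Cx3cr1. For 6 genes, P2ry12, P2ry13, Sall1, Cx3cr1, Gpr34 and Siglech, all BLZ945 libraries lay below all CTL libraries, against a background of 1.79%. The median log2 fold change was -0.74 for the 10 genes, -0.52 for the other microglia-enriched genes, -0.43 for the pan-macrophage genes and 0 for all genes.

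Contents of the sort differed beside this comparison. Choroid plexus markers (6 of 6 measured) summed to 30.7 to 9011 CPM in contralateral CTL sdCAMs and to 1413 to 37408 CPM in those of BLZ945 mice, with the highest sum in C4, although the choroid plexus had been removed. Neutrophil markers (6 of 6 measured) summed to 120 to 539 CPM and 85.6 to 2909 CPM, and sdCAM markers to 1995 to 6603 CPM and 1658 to 4750 CPM. Monocyte markers (6 of 6 measured) summed to 109 to 179 CPM in CTL and 171 to 916 CPM in BLZ945 mice, and the oligodendrocyte markers to 2350 to 6833 CPM and 995 to 3698 CPM, so that both lists overlapped between treatments. Without the contralateral library of C4, P2ry12 had a log2 fold change of -0.98, and scaled to the pan-macrophage genes -0.75 (edgeR adjusted p = 0.440), and the part of the other markers was not tested. Over all alternatives, the contralateral log2 fold change rose at most to -0.752 for P2ry12, -0.149 for Sparc and 0.000185 for Olfml3. Of the 10 genes, only Olfml3 changed sign. Ipsilaterally 0 of 10 genes were called (background 0%, with 1034 of all genes at an unadjusted p under 0.05). P2ry12 was the one of the 10 with an unadjusted p under 0.05 there (log2 fold change -0.88, SE 0.35, edgeR adjusted p = 0.838), and Cx3cr1 the one without overlap of the treatments, lower in BLZ945 mice (background 3.55%). The stroke response of sdCAMs was not shown to differ between treatments, with 0 of 10 genes called and none at an unadjusted p under 0.05 by edgeR or DESeq2 (background 0%, with 912 of all genes). The differences ranged from 0.22 for Sparc to 0.64 for Tmem119 (95% interval -0.31 to 1.59).

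Finally, the 10 genes were compared with each other over libraries. Over the 14 sdCAM libraries, Pearson's r between pairs of the 10 genes on the log2 CPM scale had a median of 0.851 and ranged from 0.414 to 0.976, with 44 of 45 pairs above 0.5. Over the 16 tissue libraries the median was 0.0316 and the range -0.557 to 0.846, with 5 of 45 pairs above 0.5. Among the genes outside the set whose pattern was most like their mean in sdCAMs were Selplg (r = 0.971), Golm1 (0.956), Gtf2h2 (0.944) and Susd3 (0.940). In tissue the 5 most alike were Cpxm1 (0.819), Slc1a3 (0.806), Moxd1 (0.796), Hif3a (0.795) and Sft2d2 (0.791). The homeostatic genes themselves had r with their mean from -0.0287 (Cx3cr1) to 0.753 (Siglech) in tissue, below each of these 5. In sdCAMs their own r ran from 0.798 (Sparc) to 0.989 (Gpr34). The tissue mean thus does not stand for a pattern shared by the 10 genes. These correlations are descriptions over libraries that share mice, hemispheres and sort contents, and no test was run on them.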

How the data were processed

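RNA from whole-tissue slices and sorted sdCAMs of 8 mice gave 32 libraries, prepared with the SMARTer and Nextera XT kits and sequenced as single reads in 1 labelled batch. The authors aligned reads with STAR 2.7.11a, counted them on genes with featureCounts 2.0.8 and deposited raw counts, 1 table per kind of library, without normalization. The genome build and strand setting of these tables are not given in the sources used here. The left-out libraries held 54055 and 55155 counts.

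Columns were mapped to mice by name. Genes with a summed count under 8 (tissue), 7 (sdCAMs) or 15 (both together) were removed. Group means were fitted with edgeR 4.0.16 (quasi-likelihood test, TMM, two-sided, Benjamini-Hochberg) and, as an alternative, DESeq2 1.42.0, in R 4.3.3. In simulated data for the BLZ945 stroke comparison, edgeR recovered 81% (tissue) and 5% (sdCAMs) of genes changed by a log2 fold change of 1, and 92% and 40% of those changed by 2. DESeq2 recovered 85% and 19%, and 95% and 55%. False calls numbered 5 (tissue) and 3 (sdCAMs) with edgeR and 12 and 52 with DESeq2. The simulation changed 100 genes by each size. In the sdCAM data of this comparison, 220 genes were called higher and 807 lower by edgeR. The rates therefore describe the simulated setting and need not hold for the data. Same-numbered libraries came from the same mouse. Deviations of both hemispheres of a mouse correlated by 0.214 to 0.645 in tissue and 0.0451 to 0.191 in sdCAMs, and a fit with the mouse as a block is an alternative. Exon lengths came from the GENCODE vM21 annotation.

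All 10 genes are named in every comparison. Of the other microglia-enriched genes, at most 6 called ones were named by size of change, and the 5 genes most like the set by Pearson's r with its mean standardized log2 CPM (prior count 2, mean of at least 1 CPM). Some genes that this rule selects are not reported here. The genes and lists were chosen with earlier results of these data known. Alternatives were another normalization, filter, tool or fold change limit, the block, scaling to pan-macrophage genes, leaving out each mouse, exchanging A3 and adding the degraded libraries. Both treatments' averages share libraries with the single-treatment comparisons.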

Additional observations from a re-analysis of the deposited data

Results flagged for a closer look

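Sparc in the contralateral sdCAM library of CTL mouse B1 stood apart from the other 3 libraries of its group, with 2079 CPM against 2917 to 2932 CPM. This was the 1 such library among 60 groups of 4 examined, where chance alone marks about 1 in 20. In the degraded ipsilateral sdCAM library of C2, which no comparison used, Olfml3 reached 6817 CPM without TMM scaling (376 counts), above 1819 in the highest used library. Sall1 reached 381 CPM there (21 counts), above 203 in the highest used library.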

How the results depend on the processing

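Every value is the number of the 10 genes called unless named otherwise. The share of all genes called under an alternative is not given. In CTL tissue (0 as reported), 1 was called with DESeq2, without a filter and with the replicate block, and 3 with scaling to pan-macrophage genes, with or without the block. In BLZ945 tissue and in the tissue average (2 each), 0 were called beyond a log2 fold change of 1 and 0 with A3 exchanged. In CTL sdCAMs (0), 1 was called with DESeq2 and 1 without the contralateral library of C4. In BLZ945 sdCAMs (1), 3 were called with DESeq2, 2 without a filter, 2 with the block, 0 with all 16 libraries, 0 with pan-macrophage scaling and 1, lower, with block and scaling. In the sdCAM average (3), 0 were called beyond 1, 0 with all 16 libraries and 1, lower, with scaling, with or without the block.

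Leaving out each mouse gave 0 to 1 in CTL tissue (1 without A4), 0 to 2 in BLZ945 tissue (0 without C3, C4 or D1, 1 without A3 or C2), 1 to 3 in the tissue average (1 without C3), 0 to 1 in CTL sdCAMs (1 without C4), 0 to 1 in BLZ945 sdCAMs (0 without C3 or C4) and 1 to 4 in the sdCAM average (1 without A4 or C3).

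Some log2 fold changes changed sign. Olfml3 in CTL tissue became -0.0129 with A3 exchanged. With scaling to pan-macrophage genes, Cx3cr1 became -0.0367 in BLZ945 tissue (-0.0365 with the block) and -0.0779 in the tissue average (-0.0783), and Olfml3 became -0.0644 in BLZ945 sdCAMs (-0.0245) and -0.0343 in the sdCAM average. Tmem119 became -0.0596 in BLZ945 sdCAMs with block and scaling and -0.0795 (-0.0979 with the block) in the sdCAM average, and Gpr34 -0.246 (-0.217). The cause was not tested. Of 130 values of single genes, 46 had an unadjusted p under 0.05, and their alternatives kept direction and side of the threshold 758 times, lost the threshold 44 times, passed it 25 times and reversed 13 times. Of the other 84 values, 62 changed sign under at least 1 alternative. Apart from those given in the report, the block changed no call. Block with scaling, the setting without the contralateral library of C4 and leaving out each mouse in the sdCAM against tissue comparison were chosen after seeing the data.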

Other observations

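P2ry12 counts per Tmem119 count, a pair chosen after its values were seen, gave a further view of the balance inside the homeostatic genes. In tissue the ratio was 0.768 to 1.02 contralaterally and 0.472 to 0.788 ipsilaterally, lower in 8 of 8 mice. In sdCAMs it was 1.03 to 1.84 contralaterally and 0.828 to 1.91 ipsilaterally, lower in 5 of 6 mice. Per 100 pan-macrophage counts, the 10 genes together held 78.1 to 207 counts in contralateral and 64.8 to 166 in ipsilateral tissue, lower in 7 of 8 mice. Sparc contributed more to this tissue sum than any other gene. Contralaterally it had 142 CPM per kb over 3.788 kb of exon, beside 13.3 CPM per kb over 4.505 kb for Cx3cr1. The tissue ratio therefore stands largely for Sparc and not for the 10 genes evenly. In sdCAMs the 10 genes held 28.1 to 52.6 and 24.05 to 51.8 counts, lower in 6 of 6 mice. These ratios are descriptions without a test.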
